A study of Mus musculus with 10 samples.

Results

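The genes described here encode the kainate-type glutamate receptor subunits Grik1, Grik2, Grik3, Grik4 and Grik5 and the delta-type receptor subunit Grid1. They were found by matching the Ensembl gene identifiers of the count tables to mouse gene symbols on GRCm38, which gave 6 genes of 54838 identifiers, and all 6 were among the 16806 genes that passed the expression filter and were tested. Translating ribosome affinity purification (TRAP) pulls down tagged ribosomes with the mRNA they carry, so that the RNA of a genetically marked cell population can be sequenced without sorting cells. Here C57BL/6 mice of the genotype Drd2-Cre;Eef1a1LSL.eGFPL10a/+, called MC-TRAP, carried a GFP-tagged ribosomal protein in cells that had expressed Cre under Drd2 control. The study describes these cells as a population enriched for mossy cells of the dentate gyrus. The 5 Dorsal and 5 Ventral libraries came from the dorsal and ventral hippocampus of these untreated mice. All 10 libraries shared this genotype, and each was a pool of 5 male mice about 10 weeks old, so spread between libraries is spread between pools. The methods describe 25 mice whose hippocampi were each divided into dorsal and ventral parts, so both groups draw on the same animals, and which dorsal and ventral pools share mice is not stated.

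Kainate receptors are glutamate-gated cation channels built from several subunits around a common pore. Grik1, Grik2 and Grik3 encode the low-affinity subunits, which can form a channel by themselves, whereas Grik4 and Grik5 encode high-affinity subunits that need a low-affinity partner to reach the surface and conduct. In the hippocampus kainate receptors are best known at mossy fiber synapses, where they act on both sides of the synapse, and in interneurons. Grid1 encodes a delta receptor, a relative that is not opened by glutamate in the usual way and links the postsynaptic membrane to presynaptic neurexins through secreted cerebellins.

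The stretch of the coding sequence that forms the pore is shown for all 6 genes because it holds a codon that is subject to RNA editing in some of them and lets the related sequences be compared base by base. The codon in capitals, CAG for glutamine, lies at the Q/R position of the pore loop, which in Grik1 and Grik2 is a known site of A-to-I RNA editing that recodes glutamine to arginine. Each sequence is 51 bases of the GENCODE M21 coding sequence on GRCm38, read 5′ to 3′ on the coding strand.
Grik1: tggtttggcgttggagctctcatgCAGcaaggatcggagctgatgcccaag
Grik2: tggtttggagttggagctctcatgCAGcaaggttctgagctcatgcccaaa
Grik3: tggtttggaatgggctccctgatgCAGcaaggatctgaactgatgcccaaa
Grik4: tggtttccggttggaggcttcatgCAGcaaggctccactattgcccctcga
Grik5: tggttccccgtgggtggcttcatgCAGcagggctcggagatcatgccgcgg
Grid1: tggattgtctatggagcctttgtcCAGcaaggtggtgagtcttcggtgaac
The codon in capitals lies at chr16:87940542-87940544 on the minus strand in exon 12 of 17 of Grik1, and at chr10:49244329-49244331 on the minus strand in exon 13 of 17 of Grik2. In Grik3 it lies at chr4:125691207-125691209 on the plus strand, in exon 12 of 16. For the high-affinity subunits the positions are chr9:42547623-42547625 on the minus strand in exon 16 of 21 of Grik4, and chr7:25022497-25022499 on the minus strand in exon 15 of 20 of Grik5. In Grid1 the codon is at chr14:35450390-35450392 on the plus strand, in exon 11 of 16. Over these 51 bases, Grik1 and Grik2 were identical at 90.2% of positions, Grik2 and Grik3 at 82.4% and Grik1 and Grik3 at 80.4%. Grik5 was as close to Grik1 as to Grik4, at 70.6% each, and Grik4 matched Grik1, Grik2 and Grik3 at 60.8, 62.7 and 54.9%. Grid1 matched the 5 kainate genes at 47.1 to 58.8%, so this short stretch does not by itself separate the subfamilies. The deposited values are counts per gene and hold no reading of which base the transcripts carried at this codon.

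Library depth ranged from 11138676 to 20594364 counts on genes, at which 3 counts correspond to 0.146 to 0.269 CPM (counts of a gene relative to the library total) before further scaling. All levels below are CPM after TMM scaling, which adjusts the library totals for composition. The Dorsal and Ventral libraries differed in quality measures that move with the group. Read pairs assigned to no gene made up 27.0% ± 5.09 (SD, n = 5) of the Dorsal libraries and 14.4% ± 2.997 (SD, n = 5) of the Ventral libraries, without overlap (two-sided exact permutation p = 0.00794, the smallest that 5 against 5 allows). Counts on mitochondrial genes made up 1.97% ± 0.0665 and 0.544% ± 0.151 (SD, n = 5 each), also without overlap (exact permutation p = 0.00794), and read pairs ambiguous between genes 6.42% ± 0.553 and 7.66% ± 0.989 (exact permutation p = 0.0476). Summed CPM of 6 mossy cell markers was 530 to 623 in Dorsal and 1135 to 1418 in Ventral libraries, with means of 65.2 and 616 CPM for Calb2 and 270 and 450 CPM for Satb1. The other 4 mossy cell markers were not called, and Drd2 and Slc17a7 had log2 fold changes, dorsal over ventral, of 0.45 and 0.28, so the summed level rests on Calb2 and Satb1. Summed CPM of the oligodendrocyte markers was 2218 to 2588 and 804 to 1475, and neither list overlapped between the groups. Summed CPM of 15 GABAergic interneuron markers was 3956 to 5169 in Dorsal and 4736 to 6247 in Ventral libraries, with overlap. Most of this sum was Gad2, which was not called. Log2 fold changes were below 0 for 13 of the 15 markers and above 0 for 2. Their median was -0.38, beside -0.0044 over all tested genes. By the rule given below, 3 of the 15 were called ventral-enriched and 1 dorsal-enriched, beside 9.85% and 15.7% of all tested genes. Summed markers of granule cells were at 856 to 953 and 663 to 961 CPM, of pyramidal cells at 327 to 414 and 324 to 397, of astrocytes at 171 to 230 and 61.8 to 185, of microglia at 19.9 to 22.3 and 11.6 to 30.8, and of endothelial cells at 4.05 to 28.1 and 6.07 to 39.3, Dorsal before Ventral. The defining mossy cell marker Drd2 was at 28.1 and 20.7 CPM on average and the GABA synthesis gene Gad2 at 2853 and 3174 CPM. No mossy cell or interneuron marker was at 0 in all libraries. The Drd2-Cre line also marks GABAergic interneurons, which the study calls sparse in the CA subregions and, among its limitations, a substantial subset. It also marks neurons of the ventral subiculum, tissue that was dissected away as far as possible and of which some may remain. The part of these measures in the results below was not tested.

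Grik1 was higher in the ventral libraries and Grik2 in the dorsal libraries, and neither Grik3, Grik4, Grik5 nor Grid1 passed the test. The 2 called genes of 6 stand beside 25.5% of all 16806 tested genes called in either direction (15.7% dorsal-enriched and 9.85% ventral-enriched), so the count itself does not set these receptor genes apart. On the adjusted p alone the count was again 2 of 6, beside 33.6% of all tested genes. A gene was called when edgeR's quasi-likelihood test gave a Benjamini-Hochberg adjusted p below 0.05 over all tested genes and the log2 ratio of mean CPM + 1 was beyond 0.58 in either direction. Fold changes below are log2 fold changes from this fit, dorsal over ventral, with their standard error (SE). In these bulk libraries, fewer cells expressing a gene and less of its RNA per cell cannot be told apart.

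Among the low-affinity subunits, Grik1 (ENSMUSG00000022935, chr16:87895900-88290265, minus strand) was the ventral-enriched member. Its levels were 13.3, 12.9, 13.97, 15.01 and 17.1 CPM across the dorsal pools 1 to 5, against 19.9, 18.8, 48.5, 25.8 and 24.5 CPM across the ventral pools 1 to 5. Every ventral library was above every dorsal library, and ventral replicate 3 stood far above the other ventral libraries. Mean levels were 14.5 ± 1.69 CPM (SD, n = 5) in dorsal and 27.5 ± 12.1 CPM (SD, n = 5) in ventral libraries, a log2 fold change of -0.90 (SE 0.25, edgeR adjusted p = 0.0137). Without ventral replicate 3 the log2 fold change was -0.64 and remained called (edgeR adjusted p = 0.0116). Grik1 was the only one of the 6 genes whose groups did not overlap in CPM, whereas 18.2% of all tested genes had no overlap, 9.81% with dorsal and 8.36% with ventral libraries higher. Beside this, ventral replicate 3 had the highest share of read pairs on no gene among the ventral libraries, 19.3%. It was the highest ventral library for the summed markers of oligodendrocytes (1475 CPM), granule cells (961), astrocytes (185), microglia (30.8) and endothelial cells (39.3), and the lowest for those of mossy cells (1135) and pyramidal cells (324). Its interneuron markers summed to 4841 CPM, within the range of the other ventral libraries.

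Grik2 (ENSMUSG00000056073, chr10:49094833-49788766, minus strand), the low-affinity subunit most closely tied to mossy fiber transmission, was higher in dorsal libraries. Its levels were 249, 117, 169, 233 and 203 CPM across the dorsal pools 1 to 5, against 120, 107, 110, 99.3 and 110 CPM across the ventral pools 1 to 5. The 5 ventral libraries lay close together, the dorsal libraries were spread widely, and dorsal replicate 2 lay inside the ventral range, so the groups overlapped. The means were 194 ± 52.7 CPM (SD, n = 5) and 110 ± 7.64 CPM (SD, n = 5), a log2 fold change of 0.82 (SE 0.17, edgeR adjusted p = 0.00268). The longest annotated transcript of Grik2 had a GC content of 37.9%, lower than that of all but 4.29% of tested genes. The union of the exons of Grik2 was 13246 bp long, longer than that of 96.3% of tested genes. When the trend of counts with GC content and exonic length was removed in each library, the log2 fold change of Grik2 was 0.10 (edgeR adjusted p = 0.69) and the gene was no longer called. Grik1, with a GC content of 47.9%, gave a log2 fold change of -1.01 (edgeR adjusted p = 0.00653) in that fit.

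Grik3 (ENSMUSG00000001985, chr4:125490700-125714173, plus strand), the remaining low-affinity subunit, had nearly the same mean level in both groups. It was at 32.6, 35.2, 44.4, 43.1 and 40.7 CPM across the dorsal pools 1 to 5, against 31.1, 48.8, 37.7, 37.8 and 40.1 CPM across the ventral pools 1 to 5. The ventral libraries enclosed the dorsal range. The means of 39.2 ± 5.10 and 39.1 ± 6.36 CPM (SD, n = 5 each) gave a log2 fold change of 0.02 (SE 0.14, edgeR adjusted p = 0.926).

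**Figure D1:**
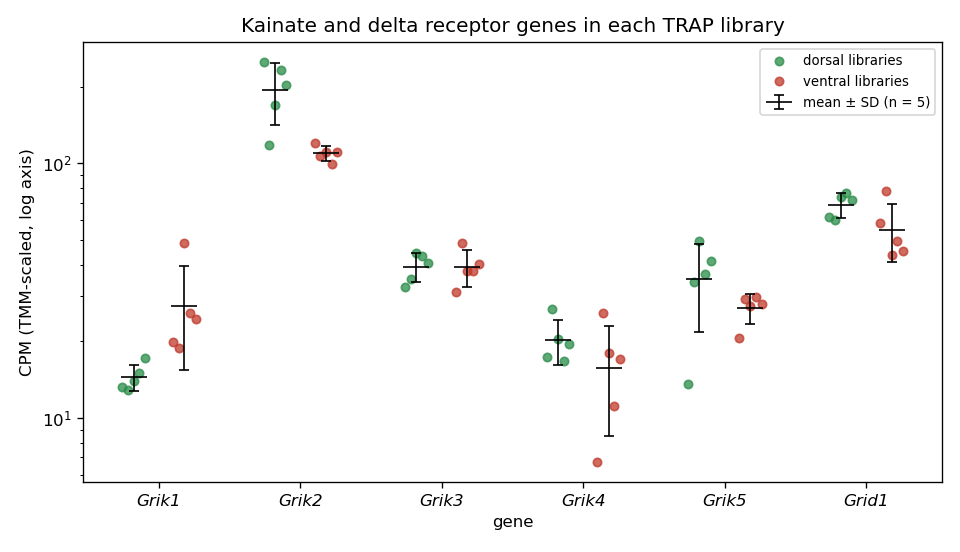
TMM-scaled CPM (log axis) of the 6 receptor genes in each of the 5 dorsal and 5 ventral libraries, with bars for mean ± SD. Grik1 is the gene whose ventral points, 18.8 to 48.5 CPM, all lie above its dorsal points, 12.9 to 17.1 CPM, while the dorsal points of Grik2 spread from 117 to 249 CPM above and into its ventral range.

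Neither high-affinity subunit passed the test. Grik4 (ENSMUSG00000032017, chr9:42518135-42944493, minus strand) was at 17.4, 26.9, 20.4, 16.8 and 19.5 CPM across the dorsal pools 1 to 5, against 6.71, 25.8, 17.98, 11.1 and 17.1 CPM across the ventral pools 1 to 5. Ventral replicate 1 was the lowest of all libraries for Grik4, and ventral replicate 2 was nearly as high as the highest dorsal library. With means of 20.2 ± 4.03 and 15.7 ± 7.26 CPM (SD, n = 5 each), the log2 fold change was 0.42 (SE 0.28, edgeR adjusted p = 0.261). Grik5 (ENSMUSG00000003378, chr7:25009849-25072346, minus strand) was at 13.6, 34.2, 49.3, 36.8 and 41.5 CPM across the dorsal pools 1 to 5, against 20.6, 29.3, 27.5, 30.0 and 27.9 CPM across the ventral pools 1 to 5. All dorsal libraries except replicate 1 lay above every ventral library, and dorsal replicate 1 lay below them all. The means were 35.1 ± 13.3 and 27.1 ± 3.74 CPM (SD, n = 5 each), with a log2 fold change of 0.40 (SE 0.24, edgeR adjusted p = 0.205). Without dorsal replicate 1 the log2 fold change of Grik5 was 0.59 with an edgeR adjusted p of 0.0115, while the log2 ratio of mean CPM + 1, on which the threshold is set, was 0.57 and missed 0.58. The longest annotated transcript of Grik5 had a GC content of 61.7%, higher than 98.4% of tested genes, at the opposite end from Grik2. Dorsal replicate 1 was the library with the highest Grik2 and the lowest Grik5. A link between GC content and the values of this library was not tested.

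The delta receptor gene Grid1 (ENSMUSG00000041078, chr14:34820108-35583379, plus strand) was at 61.4, 59.8, 73.7, 76.2 and 72.0 CPM across the dorsal pools 1 to 5, against 58.4, 78.0, 43.5, 49.7 and 45.2 CPM across the ventral pools 1 to 5. All ventral libraries except replicate 2 lay below every dorsal library, and ventral replicate 2 was the highest of all 10. The means were 68.6 ± 7.49 and 55.0 ± 14.1 CPM (SD, n = 5 each), a log2 fold change of 0.33 (SE 0.16, edgeR adjusted p = 0.115). Without ventral replicate 2 the log2 fold change was 0.48 with an edgeR adjusted p of 0.0147, again short of the fold threshold. Across the 6 genes, 5 had a log2 fold change above 0, beside 49.6% of all tested genes, and of these 5 only Grik2 was called. The median was 0.37, beside a median of -0.0044 over all tested genes.

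Divided by exonic length, levels can be ordered between genes. In dorsal libraries Grik2 led with 14.7 ± 3.98 CPM per kb (SD, n = 5), followed by Grid1 with 11.5 ± 1.26, Grik5 with 6.79 ± 2.57, Grik3 with 4.37 ± 0.568, Grik4 with 3.39 ± 0.676 and Grik1 with 2.15 ± 0.252 CPM per kb. Only the steps from Grid1 to Grik5 and from Grik4 to Grik1 separated neighbours without overlap in the dorsal libraries, and the latter depends on the length used. Per kb of the longest coding transcript, Grik1 took 9.53% of dorsal kainate transcripts and Grik4 8.49%, and in ventral libraries Grik1 took 22.1% and Grik5 21.6%. In ventral libraries Grid1 was at 9.22 ± 2.37 CPM per kb (SD, n = 5), Grik2 at 8.27 ± 0.577, Grik5 at 5.24 ± 0.723, Grik3 at 4.36 ± 0.709, Grik1 at 4.09 ± 1.80 and Grik4 at 2.64 ± 1.22 CPM per kb. There only the step from Grik2 to Grik5 was free of overlap. Compared within each ventral library, Grik5 was above Grik3 in 5 of 5, and Grik3 was above Grik4 in every library. Grik3 was above Grik1 in 4 of 5, Grik1 above Grik4 in 4 of 5, and Grid1 above Grik2 in 3 of 5. The ventral order of Grid1 and Grik2, and the place of Grik1 beside Grik3 and Grik4, is not resolved by these libraries.

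The balance of the 5 kainate subunits was read as each gene's share of their summed counts per kb of exon in a library. No test was made of these shares, because the genes were chosen together with results of these data in view. Grik1 took 6.88% ± 0.579 (SD, n = 5) of the kainate transcripts in dorsal libraries and 16.4% ± 5.61 in ventral libraries, with ranges of 6.35 to 7.57% and 10.7 to 25.7% that did not overlap. Grik2 took 46.5% ± 11.1 in dorsal and 34.1% ± 5.78 in ventral libraries, with overlap. The ratio of Grik2 to Grik1, per kb, was 9.52, 4.61, 6.14, 7.88 and 6.00 across the dorsal pools 1 to 5, against 3.07, 2.88, 1.16, 1.96 and 2.29 across the ventral pools 1 to 5. Every dorsal library had a higher ratio than any ventral library, with means of 6.83 ± 1.90 and 2.27 ± 0.766 (SD, n = 5 each). These shares and this ratio carry no correction for GC content. In the fit with GC and length offsets, the log2 fold change of Grik2 was 0.098 and that of Grik1 -1.015. The balance was not recomputed with these offsets.

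The shares of the remaining subunits overlapped between the groups. Grik3 made up 13.96% ± 1.26 of kainate transcripts dorsally and 17.7% ± 2.09 ventrally (SD, n = 5 each), Grik4 11.1% ± 3.66 and 10.5% ± 4.13, and Grik5 21.6% ± 7.79 and 21.3% ± 2.41, all with overlap. High-affinity over low-affinity subunits, that is Grik4 plus Grik5 over Grik1 to Grik3, came to 0.509 ± 0.208 dorsally and 0.472 ± 0.105 ventrally (SD, n = 5 each), also overlapping. The summed level of the 5 kainate subunit genes was 31.4 ± 3.54 CPM per kb dorsally and 24.6 ± 2.86 CPM per kb ventrally (SD, n = 5 each), with overlap.

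**Figure D2:**
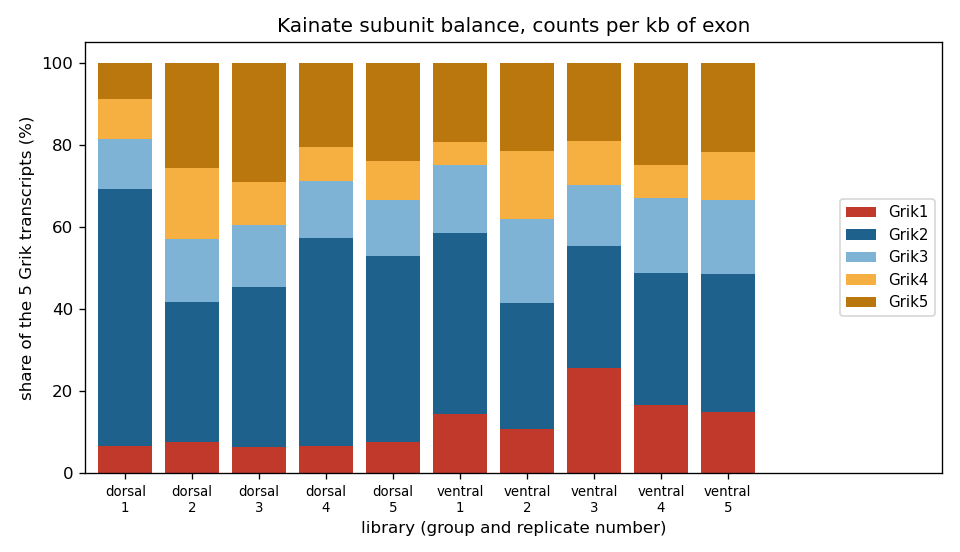
Share (%) of each Grik gene in the summed counts per kb of exon of the 5 Grik genes, one stacked bar per library. The Grik1 segment at the base is 6.35 to 7.57% in the 5 dorsal bars and 10.7 to 25.7% in the 5 ventral bars, while the Grik4 and Grik5 segments vary as much within a group as between groups.

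Of 19 partner genes of kainate and delta receptors, 17 were tested, 1 was dorsal-enriched, 2 were ventral-enriched and 14 were not called, beside 15.7% and 9.85% of all tested genes called in those directions. Their median log2 fold change was -0.15, with 8 above and 9 below 0, beside -0.0044 over all tested genes. Cbln3 was below the expression filter, and Klhl17 had no matching count row. Without dorsal replicate 4, or without ventral replicate 5, 1 of these genes was called in place of 3.

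The auxiliary subunits Neto1 and Neto2 bind kainate receptors and slow their gating. Neto1 was at 397 ± 44.3 CPM dorsally and 441 ± 66.7 CPM ventrally (SD, n = 5 each), a log2 fold change of -0.15 (SE 0.11, edgeR adjusted p = 0.322). Neto2 was at 88.2, 82.2, 91.1, 91.6 and 89.7 CPM across the dorsal pools 1 to 5, against 74.6, 64.5, 54.0, 59.2 and 49.2 CPM across the ventral pools 1 to 5. All dorsal libraries lay above all ventral libraries. The log2 fold change of Neto2, 0.56 (SE 0.12, edgeR adjusted p = 0.00414), passed the test but not the fold threshold, and with GC content and length offsets it turned to -0.34. Without ventral replicate 1 it was 0.65 (edgeR adjusted p = 0.00195) and was called, while Neto1 was called ventral-enriched with the offsets, at -0.64.

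Among the secreted proteins that bridge these receptors to neurexins, C1ql1, C1ql2 and C1ql3 belong to the C1q-like group, of which C1ql2 and C1ql3 recruit kainate receptors at mossy fiber synapses. C1ql1 was low, at 3.998 ± 2.55 CPM dorsally and 1.38 ± 0.481 CPM ventrally (SD, n = 5 each), and was called with a log2 fold change of 1.56 (SE 0.48, edgeR adjusted p = 0.0233). That call was lost without dorsal replicate 3 (edgeR adjusted p = 0.0668), dorsal replicate 4 (0.0545) or ventral replicate 5 (0.0684). The log2 fold changes of C1ql2, 0.80, and of C1ql3, 0.11, did not pass (edgeR adjusted p = 0.0767 and 0.576). The cerebellin Cbln2, a ligand of delta receptors, was at 1.69, 1.95, 1.02, 1.62 and 0.63 CPM across the dorsal pools 1 to 5, against 6.55, 1.41, 4.98, 6.01 and 6.52 CPM across the ventral pools 1 to 5. All ventral libraries except replicate 2 lay above the dorsal range, and replicate 2 lay within it. Cbln2 had a log2 fold change of -1.94 (SE 0.41, edgeR adjusted p = 0.00335). Cbln1 and Cbln4 were not called, with log2 fold changes of -0.55 and -0.46, nor were the neurexin genes Nrxn2 and Nrxn3, at 0.03 and 0.17.

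The scaffold gene Grip1, whose product binds the tails of AMPA and kainate subunits, was ventral-enriched at 18.9 ± 6.60 CPM dorsally and 31.4 ± 8.68 CPM ventrally (SD, n = 5 each), a log2 fold change of -0.75 (SE 0.25, edgeR adjusted p = 0.0303). This call held in 15 of 24 alternative settings and was lost without dorsal replicates 1, 2 or 4 or ventral replicates 1, 4 or 5, at edgeR adjusted p from 0.0571 to 0.0755. The scaffold and trafficking genes Dlg4, Pick1 and Gopc were not called, at log2 fold changes of 0.28, -0.55 and -0.42. Adarb1, which encodes the enzyme that edits the pore codon of Grik1 and Grik2, was at 164 and 139 CPM, a log2 fold change of 0.25 (SE 0.11, edgeR adjusted p = 0.0866). Adarb2, which encodes a relative without known editing activity, had a log2 fold change of -0.46 (SE 0.17, edgeR adjusted p = 0.0495) and missed the fold threshold. It was called ventral-enriched without dorsal replicate 1, at -0.62, and with GC and length offsets, at -0.66 (edgeR adjusted p = 0.00848). Adar, at -0.52, was not called.

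**Figure D3:**
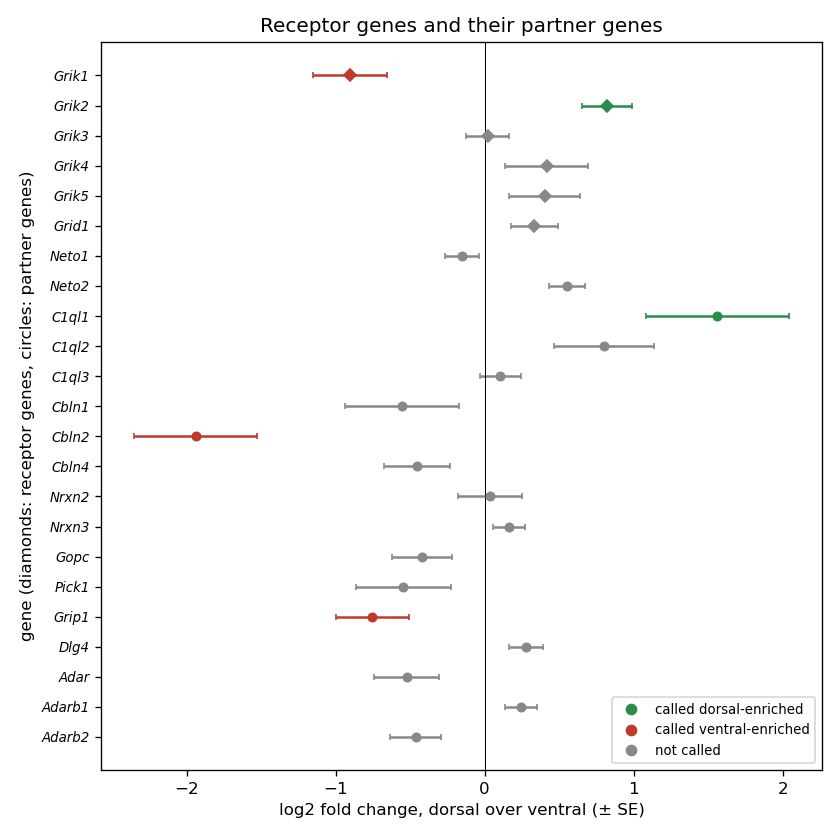
Log2 fold change (dorsal over ventral) ± SE of the 6 receptor genes, drawn as diamonds, and the 17 tested partner genes, drawn as circles, coloured by call. Grik2 and C1ql1 lie to the right as dorsal-enriched and Grik1, Cbln2 and Grip1 to the left as ventral-enriched, with the other genes uncalled.

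For comparison within the ionotropic glutamate receptors, 3 of 4 AMPA receptor genes were dorsal-enriched, with log2 fold changes of 0.61 for Gria1, 0.81 for Gria2 and 0.70 for Gria3, and Gria4 was not called at -0.42. Of the 6 NMDA receptor genes tested, Grin2a, Grin2b and Grin2c were dorsal-enriched, at 1.13, 1.01 and 1.34, and Grin3a was ventral-enriched at -0.73. Grin2c was low, at means of 1.75 CPM dorsally and 0.704 CPM ventrally, and its groups overlapped. Over all tested genes, 15.7% were dorsal-enriched and 9.85% ventral-enriched. The median log2 fold change was 0.65 over the AMPA genes and 0.49 over the NMDA genes, beside 0.37 over the kainate and delta genes. No test was made between these families.

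The calls were recomputed under 24 alternative settings. Grik1 was called ventral-enriched in 24 of 24, with log2 fold changes from -1.66 to -0.64, and Grik2 was called dorsal-enriched in 22 of 24, with log2 fold changes from 0.06 to 1.37. Grik3, Grik4, Grik5 and Grid1 were called in none of the 24. With GC and length offsets, Grik5 was at 0.49 (edgeR adjusted p = 0.0254) and missed only the fold threshold. The same held with these offsets and the replicate block, at 0.44 (edgeR adjusted p = 0.0232). With the share of read pairs on no gene as a covariate, Grik4 and Grik5 turned below 0, at -0.12 and -0.47, and neither was called.

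**Figure D4:**
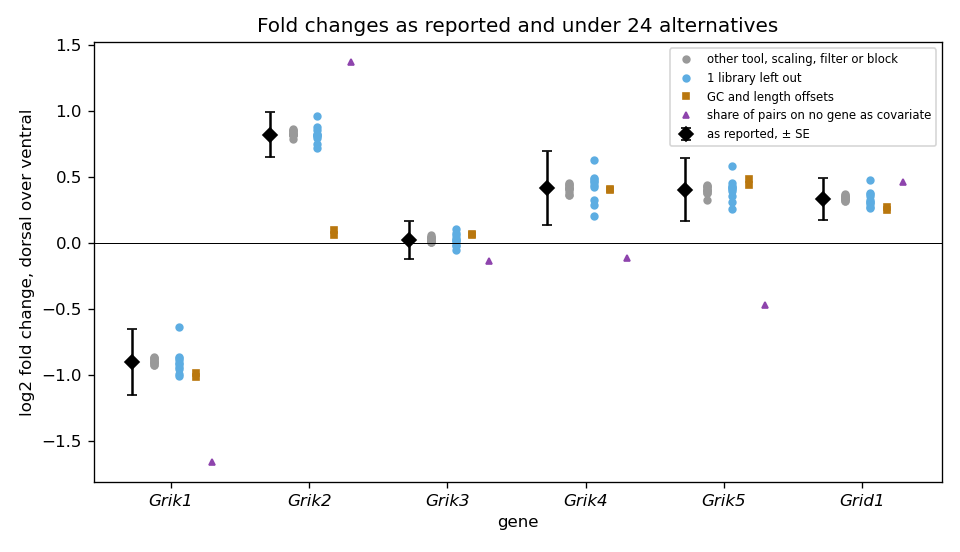
Log2 fold change (dorsal over ventral) of the 6 receptor genes as reported (diamond, ± SE) and under the 24 alternatives, coloured by kind. All Grik1 points lie below 0, from -1.66 to -0.64, and the Grik2 points lie above 0, with the GC and length offsets at 0.06 and 0.10.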

How the data were processed

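RNA from GFP immunoprecipitates (500 pg) was converted to cDNA with the Ovation RNA-Seq V2 kit and sequenced as 50 bp paired ends. Per the labels and the study's methods, the authors aligned reads with STAR 2.5.2b to GRCm38 and deposited HTSeq 0.7.2 raw counts per Ensembl gene for each library. The strand setting and annotation release are not given in the sources used here. Identifiers were matched to GENCODE M21 (54809 of 54838). Rows for unassigned read pairs were left out of library sizes.

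Genes with CPM above 1 in at least 2 of 10 libraries (16806) were fitted with edgeR 4.0.16 (R 4.3.3) using TMM scaling, the quasi-likelihood test and group as the only term, and p-values were adjusted over these genes by the Benjamini-Hochberg method. SE is the log2 fold change over the square root of F. CPM per kb used the union of exons. Exons of Grik4 and Grid1 overlap small annotated genes over 0.99% and 1.53% of their length, where reads could be left uncounted as ambiguous. GC content was that of the longest annotated transcript of each gene. GC and length trends were fitted with mgcv 1.9.3. The alternative count test was DESeq2 1.42.0. Library pairs of a group differed beyond sampling noise, with a chi-square of 4.36 to 45.1 per degree of freedom.

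The receptor genes, partner and marker lists, comparisons and tests were chosen with earlier results of these data known. Some genes of the partner list are not reported here, and counts over that list leave them out. The genes named are the 6 receptor genes, the partner list, the genes of the AMPA and NMDA lists that were called or that complete a list, and, for each called receptor gene, the 3 protein-coding genes most correlated with it. Nothing in the labels says how pools of different replicate numbers were processed. The p-values set the difference between groups against the spread between pools. The main fit treats the 10 pools as independent, although both groups draw on the same mice.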

Additional observations from a re-analysis of the deposited data

Results flagged for a closer look

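In 40 groups of 5 libraries, the highest or lowest library was compared with the rest by Dixon's ratio of gap to range, which chance exceeds in about 1 of 20 groups, and 4 values stood apart. Grik1 in ventral replicate 3 was at 48.46 CPM, with the other ventral libraries at 18.8 to 25.8 CPM. Grik5 in ventral replicate 1 was at 20.64 CPM, with the others at 27.5 to 30.0 CPM. The share of Grik2 among kainate transcripts was 44.05% in ventral replicate 1, with the others at 29.7 to 33.7%. The share of Grik4 was 17.46% in dorsal replicate 2, with the others at 8.13 to 10.4%. No cause was tested for any of these values.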

How the results depend on the processing

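Grik1 kept its direction and call in all 24 alternatives, and 2 of 6 receptor genes were called in each of the leave-one-out fits. With GC and length offsets, 2126 genes were dorsal-enriched and 2640 ventral-enriched (44.6% dorsal) in place of 2636 and 1655 (61.4%), 1 receptor gene and 6 partners (3 as reported) were called, and Neto2 turned to -0.34; with these offsets and the replicate block, the counts were 2229, 2672, 1 and 7, Grik2 was at 0.064 (edgeR adjusted p = 0.785) and Neto2 at -0.33. With the share of read pairs on no gene as a covariate, added after seeing the data, 834 and 339 genes were called and edgeR called 0 partners (4 at an unadjusted p below 0.05); Grik1 (-1.66, edgeR adjusted p = 0.0362) and Grik2 (1.37, edgeR adjusted p = 0.00836) remained called, while Grik3 was at -0.14, Grik4 at -0.12, Grik5 at -0.47, Neto1 at 0.23 and Adarb2 at 0.10. That share does not overlap between the groups, so it and the group can hardly be told apart. Leaving out each library gave 2105 to 2670 dorsal-enriched and 1216 to 1815 ventral-enriched genes, 1 to 4 called partners and -0.056 to 0.10 for Grik3, which was below 0 without dorsal replicates 3 or 4 or ventral replicate 1. As shares of raw counts, Grik1 was 4.83% in dorsal, Grik2 63.2% and 50.3%, Grik4 6.997% in dorsal, and Grik5 11.9% and 12.4% in dorsal and ventral libraries; the ratio of Grik2 to Grik1 was 13.5 and 4.47 and that of Grik4 plus Grik5 to Grik1 to Grik3 0.240 and 0.243. With no fold threshold 5 partners were called. Per kb of the longest coding transcript, Grik1 took 9.53% and 22.1%, Grik3 10.5% and 13.1%, Grik4 8.49% and 7.86%, and Grik5 22.4% and 21.6%, which puts Grik1 above Grik4 dorsally and above Grik5 ventrally. The causes were not tested.

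Same-numbered libraries did not deviate together (correlations -0.03 to 0.07, 0 of 5 over 0.1). This cannot show whether equal numbers share mice, because libraries from the same mice need not deviate together. With the replicate block 2 receptor genes were called, Grik1 at -0.87 and Grik2 at 0.79, and Grip1 was not (-0.73, edgeR adjusted p = 0.0597).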

Other observations

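Over the 10 libraries and 13549 tested protein-coding genes, the genes whose log2(CPM + 1) followed Grik1 most closely were Psmd10, a proteasome assembly chaperone (Pearson r = 0.975), 5430403G16Rik (0.967) and Cep72, a centrosomal protein gene (0.966). With each group's mean removed, r with Grik1 was 0.941, 0.921 and 0.919 in the same order. These values therefore also rest on spread within the groups, where ventral replicate 3 stood apart for Grik1. Psmd10 was at 23.6 ± 1.49 CPM dorsally and 39.2 ± 13.0 CPM ventrally (SD, n = 5 each). The other genes were low, 5430403G16Rik at 0.976 and 2.79 CPM and Cep72 at 0.533 and 5.08 CPM, Dorsal before Ventral. The genes that followed Grik2 most closely were Nrf1, a transcription factor of nuclear genes for mitochondrial proteins (0.983), E2f2 (0.983) and Snai2 (0.982). With each group's mean removed, r with Grik2 was 0.953, 0.967 and 0.950. Nrf1 was at 22.8 ± 6.08 CPM dorsally and 12.6 ± 1.07 CPM ventrally (SD, n = 5 each), whereas E2f2 and Snai2 were near 1 CPM in dorsal and near 0 in ventral libraries. E2f2 and Snai2 passed the expression filter only through dorsal libraries, and Cep72 only through ventral libraries. The libraries share their group and quality differences, so these values are a description.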
